A study of Mus musculus with 9 samples.

Results

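The 9 genes described here encode the T cell receptor complex and its first signalling steps: Cd3e, Cd3d, Cd3g, Cd247, Cd4, Cd8a, Lck, Zap70 and Cd5. They were chosen by name out of 20665 autosomal protein-coding genes, with earlier results of these data known. Each was measured over its span in GRCm38 plus 5 kb on each side. All 9 passed the limits on CpGs and reads, at the start window and in the gene body. Whole-genome bisulfite sequencing, which reads the methylation of single cytosines, was applied to splenic B cells of mice purified by magnetic depletion of other cells. HOM mice were homozygous and HET mice heterozygous for an A>T change of Kmt2d at position 98835228 of chromosome 15 (Ile5482Asn), and WT mice carried wild-type Kmt2d. ENU, the name of a chemical mutagen, stands in the HOM and HET column names but not in the WT one. The labels call all 3 groups untreated and name no strain or age for any of them. Kmt2d encodes a methyltransferase of histone H3 lysine 4. Each genotype has 1 pair of count columns in the table (a library, in what follows), although the labels describe 2 B cell samples of each. Whether a library is 1 of these samples or a pool was not given in the sources used here. No difference below therefore has a replicate check, and every test compares libraries, not genotypes.

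The T cell receptor recognises antigen through its variable chains and passes the signal on through the CD3 chains and the zeta chain, whose tyrosine motifs are phosphorylated by Lck. Lck is brought to the receptor by the coreceptors CD4 and CD8, and Zap70 then binds the phosphorylated motifs and activates the adaptors further down. B cells signal through a different receptor with its own chains, Cd79a and Cd79b, and most of the 9 genes are known as T lineage genes; Cd5 is also carried by the B-1a subset of B cells. Promoters of genes in use are usually little methylated, and those of genes that a lineage does not use are often methylated.

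The libraries held 215454437 CpG reads in HOM, 282430649 in HET and 200824258 in WT, a mean of 9.85, 12.9 and 9.18 reads per CpG over 21875444 CpGs. The level far from CpG islands was 78.1% in HOM, 80.9% in HET and 81.6% in WT, so HOM stood lower across the genome. The start windows of the 9 genes held 184 to 545 CpG reads per library over 12 to 48 CpGs. No CpG within 5 kb of the 9 genes had the pattern of a sequence variant (at most 10% in 1 library and at least 70% in the others, with at least 5 reads in each). This rule misses variants that lower a level only in part or that 2 libraries share. It also passes over CpGs without reads in a library, such as 3 within 5 kb of Cd3e that only HET lacked.

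The promoters of 4 of the genes are printed because the results turn on them. Cd3e and Zap70 had the 2 greatest differences of HET from WT, Cd8a was called in all 3 comparisons, and the second listed start of Lck lies in a run that was higher in HOM. Each runs 5′ to 3′ from 250 bases before to 50 bases after the start, with every CG, the site that carries the methylation, in capitals. They come from RefSeq promoters of GRCm38.p6: Cd3e at chr9:45009562-45009861 (minus strand), Zap70 (first start) at chr1:36761548-36761847 (plus strand), Cd8a at chr6:71373177-71373476 (plus strand) and Lck (second start) at chr4:129558323-129558622 (minus strand).
Cd3e: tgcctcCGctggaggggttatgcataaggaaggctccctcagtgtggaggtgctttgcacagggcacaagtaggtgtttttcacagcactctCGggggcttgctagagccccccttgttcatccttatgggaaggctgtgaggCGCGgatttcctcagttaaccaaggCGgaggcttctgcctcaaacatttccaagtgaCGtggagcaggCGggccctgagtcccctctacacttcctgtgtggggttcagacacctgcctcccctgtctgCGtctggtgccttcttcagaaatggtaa
Zap70: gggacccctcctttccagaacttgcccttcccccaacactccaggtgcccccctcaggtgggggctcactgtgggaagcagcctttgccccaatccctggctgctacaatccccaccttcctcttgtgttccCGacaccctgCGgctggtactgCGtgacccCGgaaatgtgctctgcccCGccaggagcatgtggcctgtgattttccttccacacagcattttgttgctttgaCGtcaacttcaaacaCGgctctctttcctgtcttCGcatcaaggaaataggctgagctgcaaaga
Cd8a: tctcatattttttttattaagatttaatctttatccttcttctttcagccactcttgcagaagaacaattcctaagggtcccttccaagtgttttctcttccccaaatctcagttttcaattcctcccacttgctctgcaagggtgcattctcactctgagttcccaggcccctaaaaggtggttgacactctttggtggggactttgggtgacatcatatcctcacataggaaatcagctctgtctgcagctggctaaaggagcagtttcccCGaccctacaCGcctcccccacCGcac
Lck: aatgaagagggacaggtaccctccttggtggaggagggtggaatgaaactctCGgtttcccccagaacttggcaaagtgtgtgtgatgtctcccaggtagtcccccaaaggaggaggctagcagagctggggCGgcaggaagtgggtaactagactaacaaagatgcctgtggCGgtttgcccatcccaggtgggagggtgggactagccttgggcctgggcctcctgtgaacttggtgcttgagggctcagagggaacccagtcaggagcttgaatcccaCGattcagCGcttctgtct

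The Cd3e and Zap70 promoters hold 8 CGs each, Lck has 5 at its second start, and Cd8a has 3, all downstream of its start. The promoter of Cd3e was methylated at 54.8% in HOM, 75.6% in HET and 53.1% in WT, over 135, 82 and 96 CpG reads. The promoter of Zap70 stood at 53.1% in HOM, 72.4% in HET and 52.1% in WT, over 64, 98 and 94 CpG reads. In both genes HOM and WT lay close together and HET above them; HET minus WT was 22.5 points at Cd3e (95% Newcombe interval 8.36 to 35.2) and 20.3 points at Zap70 (6.62 to 33.0). Such intervals, here and below, cover counting error only. Within the Zap70 promoter the 5 CGs from 118 to 70 bases before the start stood at 28.6% to 71.4% in HOM, 88.9% to 100% in HET and 45.5% to 61.5% in WT, over 6 to 8, 9 to 13 and 8 to 13 reads. Those from 15 bases before to 19 after it stood at 40% to 60% in HOM, 35.3% to 66.7% in HET and 38.5% to 60% in WT. At Cd3e the CG 158 bases before the start was read as methylated in 38.9% of 18 reads in HOM, 72.2% of 18 in HET and 7.14% of 14 in WT. The CGs 107 bases before and 22 after the start of Cd3e had no read in HET. They count in the promoter levels of HOM and WT, so the promoter difference does not compare the same CGs. The Cd3e window was called all the same without such CpGs (HET minus WT 24.9 points). Of the motifs searched on both strands, where matches may overlap, GGAA (the ETS core) was found in 4 to 10 copies in each of these promoters, and in 96.0% of all 32851 promoters in the table. TGTGGT (RUNX) was found in none of the 4, and in 16.8% of all promoters; CANNTG (the E box) was found in all 4, and in 72.3% of all. TATAAA was in no listed promoter of the 8 genes that have one and in 13.6% of all.

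Start windows ran from 1000 bp before to 500 bp after the first listed start, or around the CpG-richer end for Cd4. The CD3 chain genes, Cd8a and Zap70 were most methylated in HET there, whereas Lck and Cd5 were most methylated in HOM. A window was called when the levels differed by at least 10 percentage points with a Benjamini-Hochberg adjusted p below 0.05, from a two-sided Fisher's exact test adjusted over all 19047 windows tested. HET was higher than WT at Cd3e, Zap70, Cd3g and Cd8a, 4 of the 9 genes, and lower at none, where 1.33% of all windows were called higher and 1.2% lower. HOM was lower than HET at Cd3e, Cd8a, Zap70, Cd3g and Cd3d, 5 of the 9 genes, and higher at none, where 2.67% of all windows were called lower and 0.683% higher. Between HOM and WT, Cd5 and Lck were higher in HOM, where 1.08% of all windows were called higher, and Cd8a was lower, where 3.22% were called lower. Among the 2936 windows whose mean level was 40 to 80%, as 8 of these genes have, the shares were 3.47% higher and 3.41% lower in HET minus WT, 2.21% and 7.32% in HOM minus HET, and 3.27% and 8.17% in HOM minus WT. Over all windows HOM minus WT gave 205 higher and 614 lower calls, or 348 and 311 with levels scaled to equal open sea (CpGs far from islands), and HOM minus HET gave 130 and 509, or 219 and 283.

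**Figure D1:**
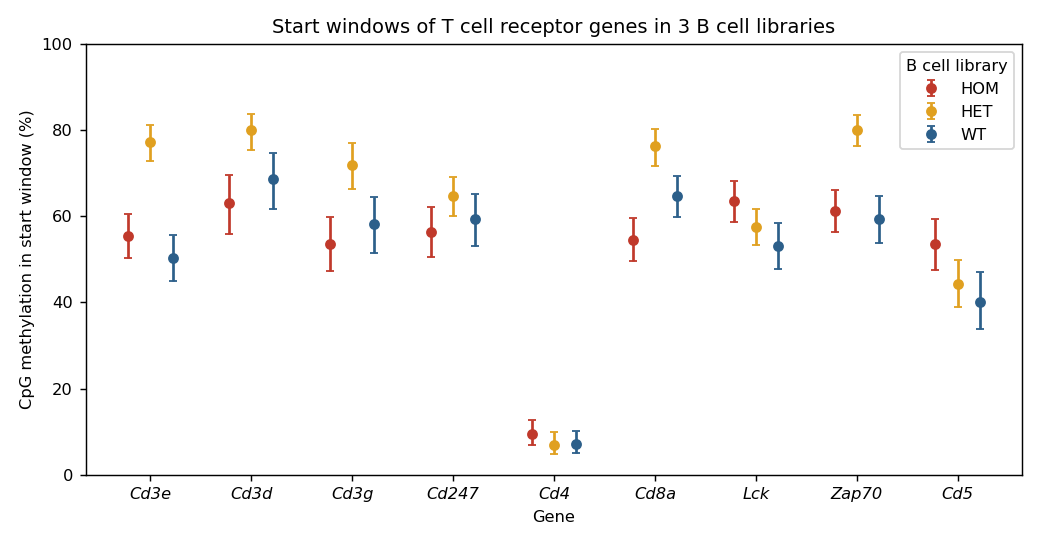
CpG methylation (%) of the start window of each of the 9 genes in the HOM, HET and WT libraries; points are levels and bars 95% Wilson intervals, which cover counting error only. Zap70 stands at 80.1% in HET between 61.3% in HOM and 59.3% in WT, and Lck and Cd5 descend from HOM over HET to WT. Cd4, measured at its CpG-richer end, lies below 10% in every library.

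The genes of the CD3 chains lie together on chromosome 9, except for Cd247 on chromosome 1. Cd3e encodes the epsilon chain, which pairs with the delta or the gamma chain, and its window (45009111 to 45010611, 27 CpGs) was methylated at 55.5% in HOM, 77.2% in HET and 50.3% in WT, over 366, 382 and 322 CpG reads. HET stood above both others: HET minus WT was 26.9 points (interval 19.9 to 33.6, adjusted p = 1.40e-10, Fisher's exact test) and HOM minus HET -21.8 points (-28.2 to -15.1, adjusted p = 7.34e-08). HOM minus WT, at 5.15 points, had an interval of -2.31 to 12.5 that included 0. HET was highest at 17 of the 20 CpGs of the Cd3e window with at least 5 reads in every library, so the difference was spread over the window.

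Cd3d, the gene of the delta chain, had a window (44980786 to 44982286, 13 CpGs) at 63.0% in HOM, 79.9% in HET and 68.6% in WT, over 184, 344 and 194 CpG reads. HOM was lower than HET by 16.9 points (interval of HOM minus HET -25.1 to -8.85, adjusted p = 0.00120, Fisher's exact test), while HET minus WT, 11.4 points (3.76 to 19.3), missed the threshold with an adjusted p = 0.0513. Cd3g, the gene of the gamma chain, starts 1355 bp from Cd3d on the other strand, and its window (44979931 to 44981431, 12 CpGs) stood at 53.6% in HOM, 72.0% in HET and 58.1% in WT, over 237, 268 and 222 CpG reads. HET was 13.9 points higher than WT there (5.44 to 22.2, adjusted p = 0.0248, Fisher's exact test) and HOM minus HET was -18.4 points (-26.5 to -10.0, adjusted p = 6.52e-04). The windows of Cd3d and Cd3g share 3 CpGs, so they are not fully separate measurements. The promoter of Cd3d, with 1 CG, was ordered as its window, at 52.4% in HOM, 78.3% in HET and 65.5% in WT. That of Cd3g did not show the window's gap between HOM and HET. It stood at 50.9% in HOM, 52.8% in HET and 45.8% in WT, with HOM minus HET at -1.90 points (-15.5 to 11.9). Cd247, the gene of the zeta chain, had the smallest spread of the 4: its window (chromosome 1, 165787681 to 165789181, 25 CpGs) stood at 56.4% in HOM, 64.7% in HET and 59.3% in WT, over 280, 445 and 248 CpG reads. It was called in no comparison, with HET minus WT at 5.45 points (-2.03 to 13) and HOM minus HET at -8.29 points (-15.6 to -1.01, adjusted p = 0.138, Fisher's exact test). The promoter of Cd247 was highest in HOM instead, at 33.3% in HOM, 25.4% in HET and 23.3% in WT, over only 39, 63 and 30 CpG reads.

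The coreceptor genes are both on chromosome 6. Cd8a, which encodes the alpha chain of the coreceptor of cytotoxic T cells, was the 1 gene called in all comparisons: its window (71372427 to 71373927, 25 CpGs) stood at 54.6% in HOM, 76.3% in HET and 64.7% in WT, over 381, 379 and 388 CpG reads. HET minus WT was 11.6 points (5.11 to 17.9, adjusted p = 0.0114, Fisher's exact test), HOM minus HET -21.7 points (-28.1 to -15.0, adjusted p = 8.59e-08) and HOM minus WT -10.1 points (-16.9 to -3.16, adjusted p = 0.0423). The HOM minus WT call was lost when levels were scaled to equal open sea (-7.49 points, adjusted p = 0.185, Fisher's exact test). The promoter printed for Cd8a did not follow its window: it stood at 29.3% in HOM, 6.67% in HET and 10.5% in WT, over only 41, 30 and 19 CpG reads, and HOM minus HET was 22.6 points (3.87 to 38.6).

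For Cd4, the coreceptor gene of helper T cells, the reference table gives neither strand nor start. Its CpG-richer end took the place of the start and may not be the end at which the gene starts. That window (124863693 to 124865193, 48 CpGs) stood at 9.38% in HOM, 6.97% in HET and 7.18% in WT, over 373, 402 and 390 CpG reads, and no interval of a difference excluded 0. It overlaps a CpG island of 45 CpGs outside Cd4 (124863584 to 124864095), which was below 1% in every library. At the other end of Cd4 (124887747 to 124889247, 21 CpGs) the level was 63.6% in HOM, 55.9% in HET and 46.9% in WT, over 291, 347 and 318 CpG reads. HOM minus WT was 16.7 points there (8.83 to 24.3) and HET minus WT 9.05 points (1.45 to 16.5). That end was the richer when 500 bp instead of 1000 bp outside the gene were counted, and HOM was then 19.3 points higher than WT (adjusted p = 0.00148, Fisher's exact test).

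Of the kinase genes, Zap70 followed the CD3 chains and Lck did not. Zap70, which binds the phosphorylated CD3 chains, had its window (chromosome 1, 36760798 to 36762298, 33 CpGs) at 61.3% in HOM, 80.1% in HET and 59.3% in WT, over 377, 482 and 307 CpG reads. HET was 20.8 points higher than WT (14.2 to 27.3, adjusted p = 1.63e-07, Fisher's exact test) and HOM minus HET was -18.8 points (-24.8 to -12.7, adjusted p = 3.85e-07). HET was highest at 20 of the 27 CpGs of that window with at least 5 reads in every library. Zap70 has 2 more listed starts inside the gene: the window of the second stood at 66.9% in HOM, 71.5% in HET and 62.5% in WT, and that of the third at 87.5% in HOM, 93.8% in HET and 94.5% in WT. The interval of HET minus WT excluded 0 at the second (3.36 to 14.6 points) and included it at the third (-3.95 to 2.88 points).

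Lck, the kinase that phosphorylates the CD3 chains, had its first window (chromosome 4, 129573141 to 129574641, 27 CpGs) at 63.7% in HOM, 57.6% in HET and 53.2% in WT, over 388, 545 and 329 CpG reads. HOM was 10.5 points higher than WT (3.23 to 17.6, adjusted p = 0.0405, Fisher's exact test), and HET lay between them. The promoter of this first start was ordered otherwise, at 18.5% in HOM, 13.3% in HET and 25.5% in WT, over 54, 150 and 47 CpG reads. HOM minus WT was -7.01 points in that promoter (-23.2 to 9.03) and HET minus WT -12.2 points (-26.9 to -0.109). The second listed start of Lck, 15269 bp further inside, had a window at 36.3% in HOM, 34.8% in HET and 31.0% in WT, with no interval of a difference that excluded 0. The printed promoter of that start stood at 25% in HOM, 3.80% in HET and 2.56% in WT, over 40, 79 and 39 CpG reads, and HOM minus WT was 22.4 points (7.28 to 37.8). HET and WT were both nearly unmethylated there, and HOM stood above them. The CG 39 bases after that start had no read in HOM, and another CG of this promoter had none in WT. The promoter difference therefore does not compare the same CGs. At each CG of this promoter with reads in all 3 libraries HOM was highest, over only 8 to 15 reads in HOM.

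Cd5, which dampens antigen receptor signals, had a window (chromosome 19, 10738474 to 10739974, 17 CpGs) at 53.6% in HOM, 44.3% in HET and 40.2% in WT, over 267, 307 and 209 CpG reads. HOM was 13.4 points higher than WT (4.33 to 22.1, adjusted p = 0.0367, Fisher's exact test); HET minus WT was 4.11 points (-4.58 to 12.6). HOM was highest at 10 of the 16 CpGs with at least 5 reads in every library, and HET at 3. The promoter of Cd5 itself was nearly unmethylated, at 3.70% in HOM, 1.35% in HET and 1.96% in WT, so the difference of the window lay outside it.

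**Figure D2:**
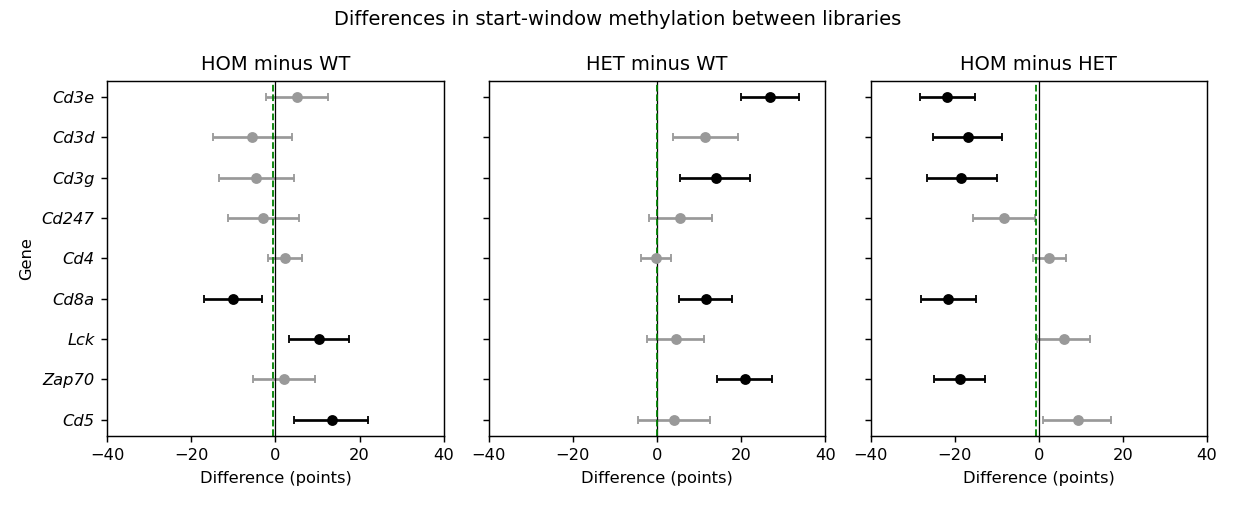
Difference in start-window methylation (points) between libraries for each gene, with 95% Newcombe intervals; black marks called genes, grey the others, and the dashed green line the median of all 19047 windows. HET minus WT is above 0 in 8 of 9 genes, and HOM minus HET is below 0 in 6 and above 0 in Cd4 (at its CpG-richer end), Lck and Cd5.

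The median difference of the 9 genes was 1.99 points for HOM minus WT, 11.4 points for HET minus WT and -16.9 points for HOM minus HET. Over all windows these medians were -0.642, -0.00585 and -0.653 points. Cd4 entered the medians and counts of the 9 genes by its CpG-richer end. HET minus WT was above 0 in 8 of the 9 genes, against 49.7% of all windows, and HOM minus WT in 5 of 9, against 36.3%. HET is part of 2 of these comparisons, so a level that is high in HET alone appears in both, with opposite signs. All calls at the start windows were lost when the reads of a window were divided by how many of its CpGs a read of 150 bp spans, so that linked CpGs count once. The lowest adjusted p was then 0.139, for Cd3e in HET minus WT; the intervals excluded 0 for Cd3e, Zap70, Cd3g and Cd3d in HET minus WT, for Cd3e, Cd8a, Zap70, Cd3g and Cd3d in HOM minus HET, and for 0 of 9 genes in HOM minus WT. The interval of Cd8a in HET minus WT included 0 (-3.06 to 26.3 points).

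Within a library the genes formed a narrower band in HOM than in HET. In HOM the 8 genes other than Cd4 lay between 53.6% and 63.7%, and no neighbours in that order differed beyond their counting intervals. In HET the order began with Cd4, Cd5, Lck, Cd247 and Cd3g, each step larger than its interval, and Cd3g, Cd8a, Cd3e, Cd3d and Zap70 followed from 72.0% to 80.1% without such a step. In WT only Cd4 and Cd5 stood apart from their next neighbours, and the genes from Cd3e to Cd3d lay between 50.3% and 68.6%.

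**Figure D3:**
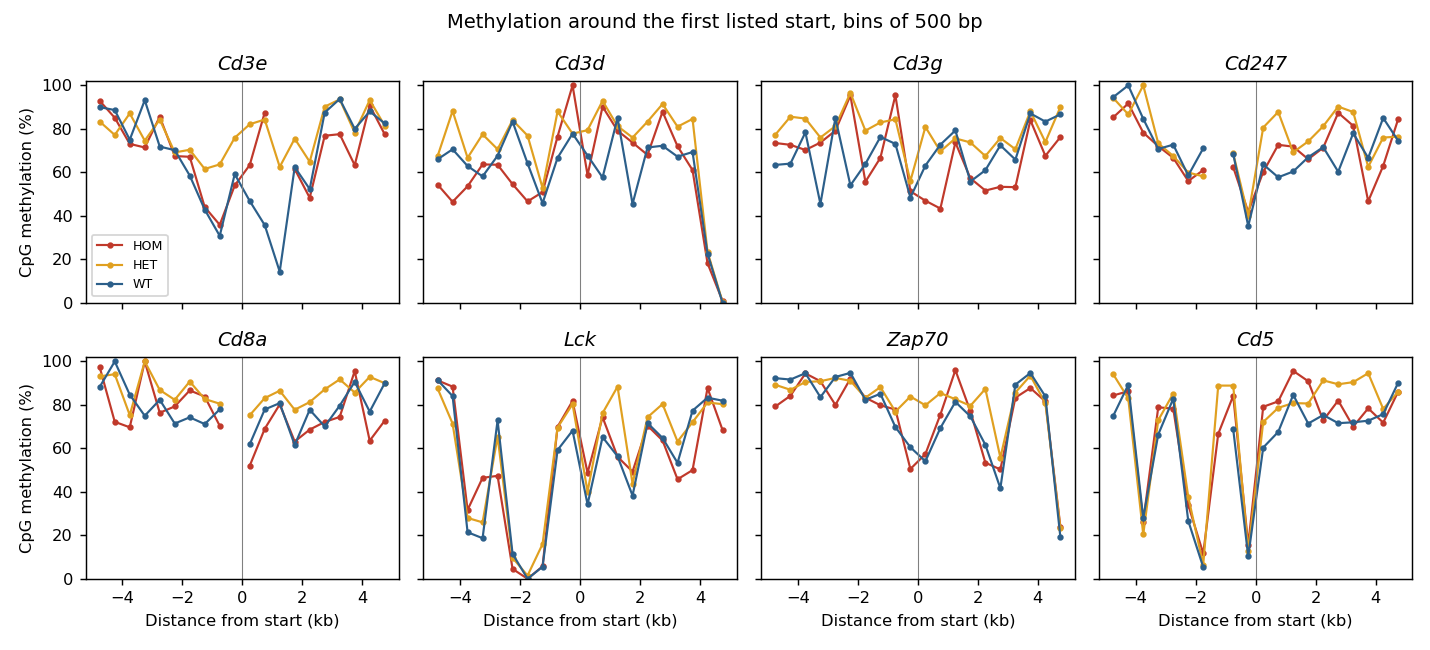
CpG methylation (%) in bins of 500 bp from 5 kb before to 5 kb after the first listed start of the 8 genes that have one, with a line for each library; bins under 5 reads in a library are left blank. The HET line of Cd3e runs above the others around the start, at 75.9% just before it against 54.0% in HOM and 59.2% in WT, while the lines of Lck and Cd5 drop to low levels in all libraries upstream of the start.

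The gene bodies, without the first and last 500 bp, stood lower in HOM than in HET in all 9 genes, with a median of -5.44 points, where the median of all 18301 bodies was -2.71 points and 14.2% of them were above 0. Cd8a was the 1 body called: it stood at 74.3% in HOM, 87.0% in HET and 78.8% in WT, over 919, 1068 and 846 CpG reads, and HOM minus HET was -12.7 points (-16.1 to -9.20, adjusted p = 6.67e-12, Fisher's exact test), where 2.06% of all bodies were called lower and 0.273% higher. With levels scaled to equal open sea all 9 stayed below 0, at -9.96 to -0.647 points, and the call of Cd8a was lost. No body was called between HET and WT, where 0.541% of all were called higher and 0.798% lower, or between HOM and WT, where 0.279% were higher and 2.94% lower. The scaling changed the split over all bodies from 51 higher and 538 lower to 126 and 213 in HOM minus WT, from 99 and 146 to 108 and 104 in HET minus WT, and from 50 and 377 to 91 and 177 in HOM minus HET.

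Lck had the lowest body in HOM and HET, at 51.0% in HOM, 57.8% in HET and 59.0% in WT. Its body and its first window differed in opposite directions between HOM and WT. HOM minus WT was -8.00 points over the body of Lck (-10.1 to -5.93). Cd3g, too, had a body that was least methylated in HOM, at 65.5% in HOM, 73.5% in HET and 73.9% in WT. Cd4 had the most methylated body in WT, at 77.3% in HOM, 81.4% in HET and 82.5% in WT. The bodies of Cd3e, Cd3d, Cd247, Zap70 and Cd5 lay between 54.9% for Cd3d in WT and 80.6% for Cd5 in HET. Within 500 kb of each gene the level outside islands and their surroundings differed between HET and WT by -1.22 to 0.587 points and between HOM and WT by -4.47 to -2.29 points. These are averages over 7896 to 9823 CpGs and do not show how far single windows nearby differ. They are therefore no yardstick for the called windows, which were picked by the size of their difference.

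Among the 18 flanks of 5 kb, HET minus WT was highest beside Cd3g and lowest beside Lck. The flank of Cd3g at higher coordinates, which reaches into Cd3d, stood at 68.4% in HOM, 78.6% in HET and 64.1% in WT, a HET minus WT difference of 14.4 points (9.93 to 19.0). The flank of Lck at lower coordinates went the other way, at 78.0% in HOM, 77.7% in HET and 88.1% in WT. There HOM and HET lay together below WT, with HOM minus WT at -10.1 points (-14.8 to -5.18) and HET minus WT at -10.4 points (-14.6 to -5.90).

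Low-methylated runs are stretches of 4 or more CpGs spanning 100 bp or more, away from CpG islands and their borders, with a running level under 50% averaged over the libraries. The 9 genes and their flanks held 39 of them, of which 37 passed the read limits: 10 at Cd247, 7 at Cd4, 6 at Lck, 5 at Cd5, 3 each at Cd3e and Zap70, and 1 each at Cd3d, Cd3g and Cd8a. Their median level was 26.0% in HOM, 22.5% in HET and 24.2% in WT. HOM was higher than WT in 3 runs and lower in 0, where 3.24% of all 69677 runs were called higher and 2.01% lower, and higher than HET in 2 runs and lower in 0, where the shares were 3.29% and 1.88%. In HET minus WT no run was called in either direction, where 1.84% were called higher and 2.35% lower.

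Both runs called in HOM against WT and against HET lie at Lck. The run from 129576906 to 129577424 (17 CpGs) lies inside the neighbouring gene Fam167b and stood at 28.8% in HOM, 16.3% in HET and 9.29% in WT, over 351, 578 and 409 CpG reads. HOM minus WT was 19.5 points (14.0 to 25, adjusted p = 3.11e-09, Fisher's exact test) and HOM minus HET 12.5 points (6.98 to 18.2, adjusted p = 7.49e-04). The run from 129558236 to 129558954 (16 CpGs) holds the second start of Lck and the promoter printed for it, and stood at 21.9% in HOM, 10.5% in HET and 8.03% in WT, over 187, 248 and 137 CpG reads. HOM minus WT was 13.9 points there (6.04 to 21.2, adjusted p = 0.0184, Fisher's exact test) and HOM minus HET 11.4 points (4.51 to 18.7, adjusted p = 0.0276). In both runs HOM stood apart and HET lay nearer to WT.

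The third called run lies inside Cd5 (10723274 to 10723383, 5 CpGs) and stood at 58.3% in HOM, 32.8% in HET and 33.0% in WT, over 72, 61 and 115 CpG reads, with HOM minus WT at 25.3 points (10.7 to 38.6, adjusted p = 0.0208, Fisher's exact test). The run of Lck with most CpGs (129555607 to 129557100, 65 CpGs) was ordered the other way, at 10.4% in HOM, 12.4% in HET and 15.6% in WT, and its HOM minus WT of -5.21 points (adjusted p = 0.00755, Fisher's exact test) was below the 10 points asked of a call. The longest runs of Zap70 (36784510 to 36785885, 53 CpGs, at 6.49% in HOM, 5.18% in HET and 6.07% in WT), Cd247 (165779894 to 165781751, 48 CpGs) and Cd3d (44985944 to 44987553, 25 CpGs) were low in every library. The Cd247 run stood at 9.48% in HOM, 10.7% in HET and 12.2% in WT, and the Cd3d run at 5.77% in HOM, 5.64% in HET and 8.15% in WT. With linked CpGs counted once, no run was called; the lowest adjusted p was 0.329, in HOM minus WT.

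**Figure D4:**
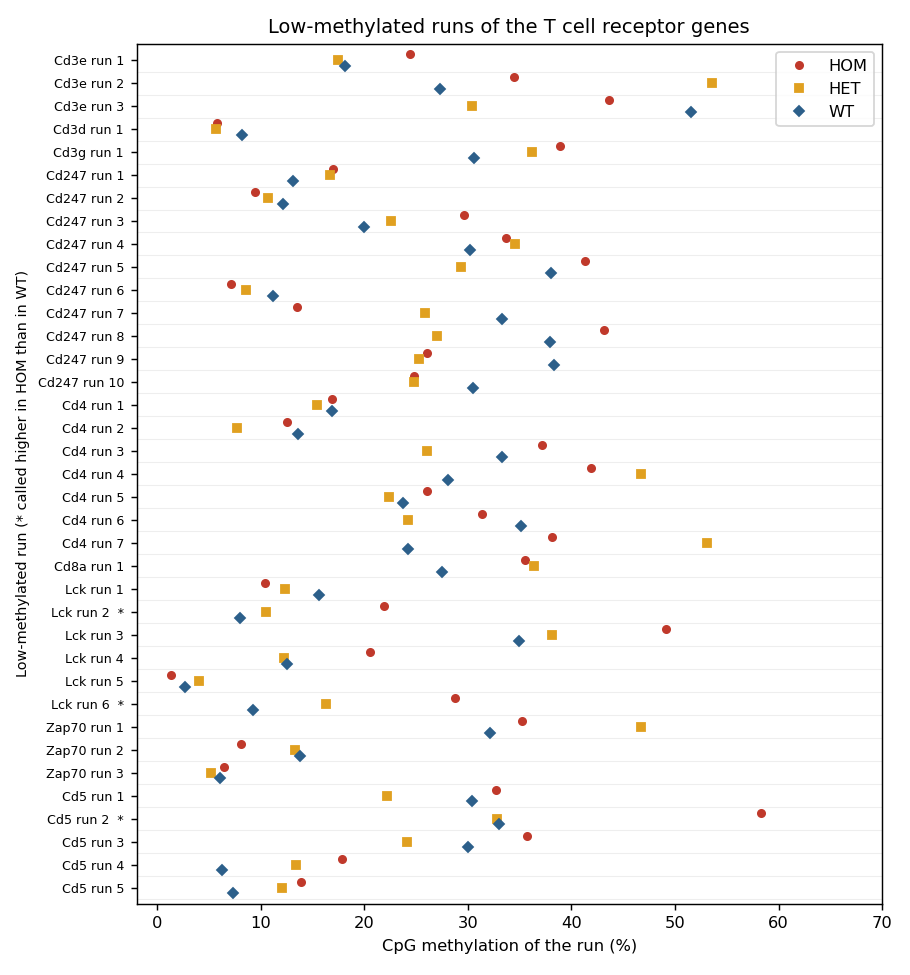
CpG methylation (%) of the 37 low-methylated runs of the 9 genes in the HOM, HET and WT libraries, numbered by coordinate within a gene; asterisks mark the 3 runs called higher in HOM than in WT. Those are runs 2 and 6 of Lck and run 2 of Cd5.

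CpG islands within the measured spans showed both extremes. Islands near Cd3g (44965438 to 44965717) and inside Cd247 (165845014 to 165845260) had no methylated call in any library, over 286, 272 and 302 CpG reads in HOM, HET and WT at Cd3g and 193, 229 and 136 at Cd247. A count of 0 (with a limit of 3 counts) allows levels of up to 1.05%, 1.10% and 0.993% at Cd3g and 1.55%, 1.31% and 2.21% at Cd247. Zap70 holds an island (36779085 to 36779320) that stood at 88.6% in HOM, 96.7% in HET and 97.5% in WT, and HOM minus WT was -8.91 points there (-14.7 to -2.85). A second island of Zap70 (36770809 to 36771193) stood at 69.9% in HOM, 65.4% in HET and 76.4% in WT.

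The further signalling genes downstream of the receptor were followed in a list of 37, which shares 7 genes with the T cell marker list below. Their start windows had a median of 23.4% in HOM, 27.0% in HET and 22.8% in WT. HET was higher than WT in 3 of 37 and lower in 0, where 1.33% of all windows were called higher and 1.2% lower, and HET minus WT had a median of 2.95 points. Among them were Cd8b1, which encodes the beta chain of CD8 (68.1% in HOM, 81.3% in HET and 66.1% in WT) and Fyb, an adaptor (19.5% in HOM, 23.6% in HET and 12.3% in WT). HOM was lower than HET in 2 of 37, where 2.67% of all windows were called lower, and higher in 0, where 0.683% were: Cd8b1 by 13.2 points and Cd6, a surface receptor related to Cd5, by 10.6 points.

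HOM was higher than WT in 4 of the 37 and lower in 0, where 1.08% of all windows were called higher and 3.22% lower, with a median difference of 0.550 points. Among these, Themis, needed for the selection of thymocytes, stood at 81.1% in HOM, 74.8% in HET and 55.2% in WT, over only 106, 115 and 67 CpG reads. Ptpn6, also called, encodes a phosphatase that dampens receptor signals and stood at 56.1% in HOM, 46.2% in HET and 40.6% in WT. Ptpn6 was ordered as Lck and Cd5 were, from HOM over HET to WT, and Cd8b1 had its highest level in HET, as Cd8a did. In the gene bodies HOM minus HET was below 0 in 37 of 37, with a median of -3.38 points, beside a median of -2.71 points over all bodies, of which 14.2% were above 0.

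Because the libraries are bulk, a fraction of cells that lack methylation and a partial loss in every cell cannot be told apart. Levels at the markers of cell types that a splenic B cell preparation could hold were therefore set beside those of the 9 genes. The 10 T cell markers outside the 9 genes had start-window medians of 56.4% in HOM, 64.8% in HET and 50.6% in WT; HET minus WT had a median of 8.24 points (range -2.37 to 19.6), with 2 called higher and 0 lower. HOM minus WT had a median of 2.17 points, with 2 called higher and 0 lower, and HOM minus HET one of -1.46 points, with 0 higher and 2 lower. In the bodies of these 10 markers HET minus WT was above 0 in 10 of 10, with a median of 5.17 points, beside 40.5% of all bodies and a median of -0.466 points. The bodies of the 9 genes were less uniform, above 0 in 6 and below 0 in Cd3g, Cd4 and Lck, with a median of 2.57 points. HET was thus the library in which both sets of T cell genes were most methylated by their medians.

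The 12 B cell markers stood at medians of 28.7% in HOM, 24.7% in HET and 29.8% in WT, and HET minus WT had a median of -5.63 points (range -23.9 to 5.22), with 3 called lower and 0 higher. HOM minus WT had a median of -5.05 points there, again with 3 called lower and 0 higher, and HOM minus HET 2.70 points with none called. NK cell markers had a median HET minus WT of 2.23 points over 6 genes with none called, myeloid markers 4.996 points over 8 genes with 2 called higher and 1 lower, and erythroid and platelet markers 2.15 points over 5 of 6 genes with none called. The medians of these 3 lists were 2.35, 0.00679 and -5.14 points in HOM minus WT, with 1 myeloid gene called higher, and -3.33, -2.53 and -8.39 points in HOM minus HET, with 1 erythroid or platelet gene called higher and 1 lower. The part of other cell types in the differences of the 9 genes was not tested.

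**Figure D5:**
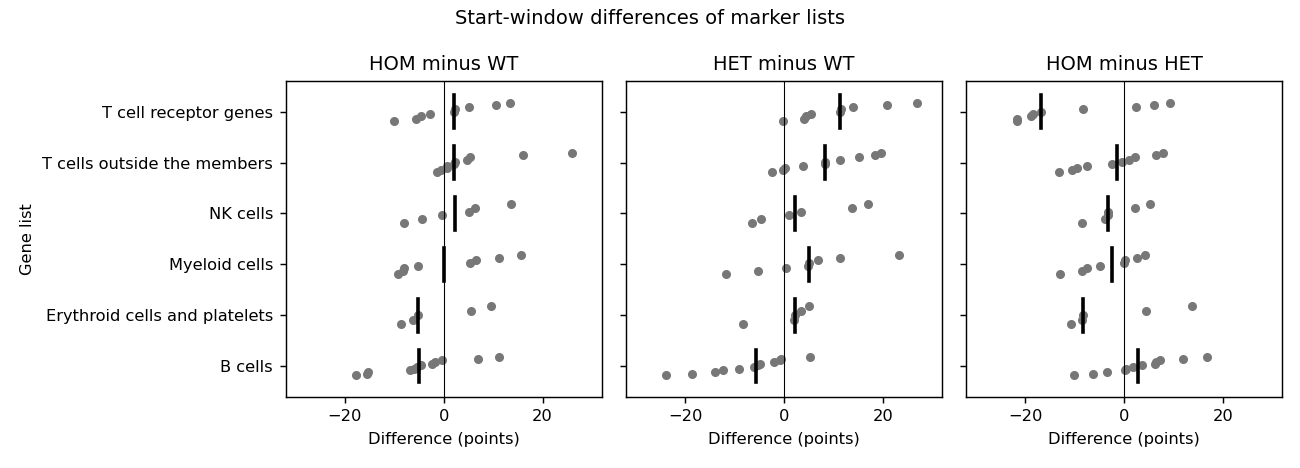
Difference in start-window methylation (points) for the genes of each marker list in the 3 comparisons; grey points are genes and black bars medians. The T cell receptor genes have the highest median in HET minus WT (11.4 points) and the lowest in HOM minus HET (-16.9 points), the other T cell markers follow in HET minus WT (8.24 points), and B cell markers lie below 0 there (-5.63 points).

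The genes whose profiles around the start were most like the median profile of the 8 genes with a listed start were sought among 13830 genes, by the root mean square difference over up to 60 values (bins of 500 bp within 5 kb in the 3 libraries). The nearest outside the set were Myh6, a myosin heavy chain gene of heart muscle (10.6 points), Lmod1, a leiomodin gene of smooth muscle (10.8 points), and Gzmg, a granzyme gene (11.5 points). Cd8a ranked 1, Cd247 3 and Cd3g 21, although these genes are themselves part of the median, while Lck ranked 6811.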

How the data were processed

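The deposited table holds 2 counts for each CpG and library, per the file headers: methylated reads and covering reads, both not normalized. The builds named include mm10, per the submitters' processing notes, and the tools are Bismark, Bowtie2, Trim Galore 0.2.8 and Picard 1.91 for some samples and MethylDackel, BWA 0.7.13 and Picard 2.3.0 for others; which of them made the columns was not given in the sources used here. Of 9 labelled samples, the 3 blood samples, depleted of B cells, were not analysed here. DNA of 200 ng sheared to 800 bp was, per the labels' protocols, read in pairs of 150 bp.

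A level is the sum of methylated reads of a region over that of its covering reads. The planned count model over replicates could not be fitted with 1 column pair per genotype, so the fallback laid down with it was used: Newcombe intervals for differences, Wilson intervals for levels, and two-sided Fisher's exact tests with Benjamini-Hochberg adjustment over all regions of a class. Regions with under 3 CpGs or under 30 CpG reads in any library were left out. Intervals and limits cover counting error only, and CpGs of a read were taken as independent unless stated. Start windows used the most upstream of the starts listed by RefSeq (GRCm38.p6) for 16457 genes, 8 of the 9 here, and otherwise the CpG-richer end. All 395568 CGs of the listed promoters were found at CpG positions of the table. CpG islands were found from CpG positions alone, as segments over 200 bp with at least 6 CpGs per 100 bp, and open sea lies over 4000 bp from them.

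All 9 genes are named, with called runs and the longest run of a gene, at most 4 called genes of the signalling list in each direction, and the 3 most similar profiles; a few genes within this rule are not reported here. The genes, the lists and several tests were chosen with earlier results of these data known. Alternatives changed the coverage minimum, window, weighting, region limits, size of difference, run threshold, segmentation, scaling and the treatment of linked CpGs; leaving out variant-like and unread CpGs was added after the data had been seen. The code of the Fisher tests was tested on simulated counts. Python 3.11.15, numpy 2.4.6, pandas 2.3.3, scipy 1.17.1, numba 0.67.0 and matplotlib 3.10.9 were used.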

Additional observations from a re-analysis of the deposited data

How the results depend on the processing

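No paired analysis was possible because the table holds 1 column pair per genotype without replicate numbers; for the same reason no replicate could be left out. Of the main counts, start windows gave 3, 4 and 5 calls, bodies 0, 0 and 1, and runs 3, 0 and 2, in HOM minus WT, HET minus WT and HOM minus HET, in that order below. With linked CpGs of a read counted once, start windows gave 0, 0 and 0 calls and runs 0, 0 and 0; over all start windows only 2 higher and 1 lower were then called in HOM minus WT, 2 and 1 in HET minus WT, and 1 and 1 in HOM minus HET. Asking for 20 points left 0, 2 and 2 start windows and 1, 0 and 0 runs, and asking for 5 points gave 3, 3 and 5 bodies. In HOM minus WT, equal weight per CpG and windows of 500 bp on each side left 1 start window each, in the narrow windows that of Cd4. Runs below 30% gave 1 call in HOM minus WT and 1 in HOM minus HET, and leaving out variant-like and unread CpGs left 1 run in HOM minus HET. CpGs with at least 5 reads gave 1 body in HET minus WT (Cd3d), and scaling to equal open sea 0 bodies in HOM minus HET. The other 43 recomputed counts stayed within 1.5 times the main one. Of the single values, 316 kept direction and call, 30 lost a call, 14 gained one and 18 turned sign. None of the turned values had been called. With equal weight per CpG these were the windows of Cd4 (-0.0171 points, HOM minus WT) and Lck (-4.17, HOM minus HET), and with narrow windows those of Zap70 (-2.14, HOM minus WT) and Cd4 (6.88, HET minus WT). With the CpG-richer end they were Cd247 (4.92, -6.50 and 11.4 in the 3 comparisons) and Cd3d (-3.04, HET minus WT). The turned bodies were Cd3e (-1.68, HOM minus WT), Lck (0.651, HET minus WT) and Cd3g (0.299, HET minus WT) with at least 5 reads per CpG, Zap70 (1.27), Cd247 (2.20) and Cd5 (3.25) in HOM minus WT and Cd3g (0.252, HET minus WT) with scaling, Cd5 (0.00273, HOM minus WT) with linked CpGs counted once, and Cd3e (-1.24, HOM minus WT) and Cd3g (0.171, HET minus WT) without variant-like and unread CpGs. The cause was not tested. Depth limits the promoters most, where 19 to 175 CpG reads per library leave wide intervals.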
